A study of Mus musculus with 11 samples.

Results

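Heart RNA of mice with cardiomyocyte deletion of Cd36 (CM KO, 3 libraries) was set against heart RNA of Control mice (2 libraries) over all 23420 genes of the deposited table. These are 5 of the 11 libraries of the series, assigned by their titles, and no measured value entered the choice. The labels describe every group, Control included, as offspring of a Cd36 loxp by Cd36 loxp cross, and the design text adds Tie2-cre for the endothelial knockout and MHC-cre for the cardiomyocyte knockout. By its name MHC-cre places the Cre recombinase under a myosin heavy chain promoter, which is used to restrict recombination to cardiomyocytes. The labels give Control no Cre, and no library carried MHC-cre with an intact Cd36 gene, so an effect of the Cre and an effect of the deletion cannot be told apart. The labels state no age, sex, diet or fasting state. The endothelial knockout (EC KO, 3 libraries) and the total knockout (Total KO, 3 libraries, whose origin the labels leave unstated) were used only for direct comparisons with CM KO and for a shared estimate of the spread. The labels do not say whether libraries of a group came from separate animals, and the p-values therefore cover no more than library-to-library spread, which may be technical.

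Cd36 is a membrane glycoprotein that binds long-chain fatty acids and promotes their uptake, and in the heart it is made by both cardiomyocytes and capillary endothelial cells. Adult cardiomyocytes draw most of their energy from fatty acids, which are activated to acyl-CoA, carried into mitochondria through the carnitine shuttle and shortened by beta-oxidation, with glucose, lactate, ketone bodies and branched-chain amino acids as other fuels. Nuclear receptors of the PPAR and ERR families, with the coactivator PGC-1, drive the genes of this system, and fatty acids themselves are PPAR ligands. Under mechanical or metabolic strain, ventricular muscle turns on genes of fetal heart, such as atrial natriuretic peptide, beta myosin heavy chain and skeletal alpha-actin, while fibroblasts lay down collagen and matricellular proteins.

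The values are normalized read counts, which the authors obtained by scaling each library's whole read counts by a factor of its own. Recovered reads were 17058598 and 18258252 in Control and 15582950, 20105673 and 15848956 in CM KO. CM KO replicate 1 stood apart: along the leading principal component of all 11 libraries, with 42.2% of their variance, it lay at 58.9, against 24.3 and 32.3 for the other CM KO libraries and -12.8 and 1.81 for Control. The numbers in the labels were 4920, 4923 and 4922 in CM KO (replicates 1 to 3) and 5059 and 5061 in Control. What they stand for is not stated, and a batch that followed them cannot be told apart from genotype. Xist was at most 8.95 in these 5 libraries, and the Y-linked genes Ddx3y, Uty, Kdm5d and Eif2s3y were all at or above 208.

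The tissue carried the markers of heart. The summed level of 10 cardiomyocyte markers was 1431359 and 1430678 in Control and 881945, 1276407 and 1221327 in CM KO, with a median log2 difference of -0.37 and no member passing by limma or edgeR (2 at an unadjusted limma p under 0.05, and 1 lower by DESeq2). In 8 of the 10, all CM KO libraries lay below both Control libraries, against 18.3% of all tested genes. In a tissue extract, fewer cells of a type and less RNA per cell cannot be told apart. Macrophage markers summed to 3927 to 4132 in Control and 7090.3 to 12247 in CM KO, and 8 of the 11 tested were higher (72.7%, against 3.29% of all genes). Fibroblast markers summed to 44044 to 46849 and 53049 to 71609.7, with 5 of 12 higher (41.7%), and markers of activated fibroblasts to 1572 to 2604 and 7771 to 40708, with 4 of 8 higher (50%). Endothelial markers summed to 37689.6 to 39750.3 and 30599 to 35323, and none of 12 passed by limma, edgeR or DESeq2 (2 had an unadjusted limma p under 0.05). Lists for adipocytes and lung summed to at most 33.5 and 31.6 in any of the 5 libraries.

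Cd36 itself read 44529.6 and 35425 in Control and 15792, 21610.2 and 21363 in CM KO, and every CM KO library lay below both Control libraries. The CM KO mean was 49% of the Control mean (19589 ± 3290.1, SD, n = 3, against 39977 ± 6438, n = 2), a log2 difference of -1.03 (SE 0.17, limma adjusted p = 0.0086). The gene lies on the minus strand of chromosome 5 (17781690 to 17888959, GRCm38.p6, RefSeq). A count per gene does not show which exons the remaining reads came from, nor in which cells.

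Of 12976 genes with a mean of at least 10, 739 (5.70%) differed between CM KO and Control at a limma adjusted p under 0.05. Of these, 427 (3.29% of the tested genes) were higher and 312 (2.40%) lower in CM KO, with median log2 differences of 1.05 and −0.72, and 232 of the higher and 88 of the lower genes differed by at least 1 on the log2 scale. At an unadjusted p under 0.05 there were 2729 genes (21.0%), while edgeR on the recovered reads called 1007 (7.76%) and DESeq2 1276 (9.83%). The median over all tested genes was −0.004 on this scale. The largest rises were in muscle, matrix and secreted-protein genes such as Nppa, Mybphl, Cilp and Postn, and the largest falls in the metabolic genes Cyp4f15 and Acsm5. The 2 groups did not overlap in any of the 739 called genes, so a lack of overlap adds nothing to a call. Over all tested genes the groups did not overlap in 36.6%, with 18.3% in each direction. The shares of 3.29% higher, 2.40% lower and 18.3% are the background for the list and marker counts of CM KO against Control. The direct comparisons with EC KO and Total KO have larger shares of their own, given with those counts. Scaling each library to its total gave 568 higher and 237 lower genes, so that 70.6% of calls were higher in place of 57.8%. The number of calls rested on Control replicate 1 and on the shared fit: without that library 26 genes passed, without CM KO replicate 1 366 did, and a fit to the 2 groups alone called 63. Nppa, Timp1, Col14a1, Acsm5, Slc40a1, Fkbp5, Dmd and Plekha7 were the named genes that still passed without Control replicate 1, and the other called genes named here missed the threshold there, except Cyp4f15, which fell under the filter on low values and was not tested.

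**Figure D1:**
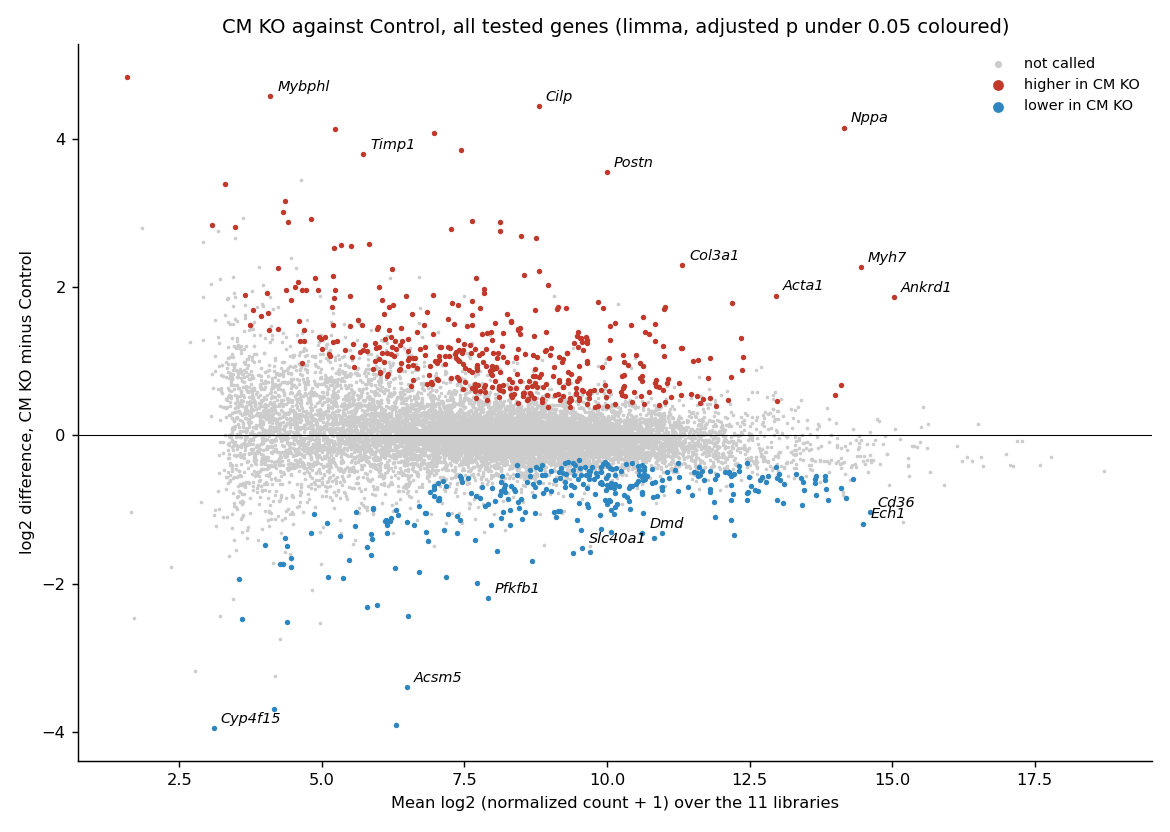
Log2 difference between CM KO and Control (y axis) against mean log2 normalized count plus 1 over the 11 libraries (x axis), 1 point per tested gene. Red points are the 427 higher and blue points the 312 lower genes at a limma adjusted p under 0.05; Nppa lies at 4.14 far to the right, among the most abundant transcripts.

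Nppa, which encodes atrial natriuretic peptide, rose in every CM KO library. It read 6038 and 10192 in Control and 215750.3, 105984 and 116782 in CM KO. The lowest CM KO library was far above the higher Control library, and CM KO replicate 1 was highest. The log2 difference was 4.14 (SE 0.38, limma adjusted p = 0.0011). Nppa took 1.79, 0.814 and 0.901% of all counted reads in CM KO against 0.0455 and 0.0749% in Control, and in CM KO replicate 1 it was the most abundant transcript of the table, ahead of Myh6.

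Its neighbour Nppb, which encodes B-type natriuretic peptide, did not pass. Nppb read 6694 and 8556 in Control and 9794, 11869 and 11405 in CM KO, with no overlap but a log2 difference of 0.54 (SE 0.31, limma adjusted p = 0.35). Both genes lie on the plus strand of chromosome 4 (GRCm38.p6, RefSeq), Nppb at 147985786 to 147987205 and Nppa at 148000722 to 148002074, 13516 bases apart. Per kilobase of annotated exon, Nppa stood at 0.814 and 1.08 times Nppb in Control and at 19.9, 8.06 and 9.25 times in CM KO. Of the 9 tested genes for natriuretic peptides, their processing and their receptors, 1 rose (Nppa) and 1 fell (11.1% each, against 3.29% and 2.40% of all genes). The one that fell was Mme, neprilysin, a peptidase that degrades natriuretic peptides, with 117 and 113 in Control and 17, 42.7 and 47.4 in CM KO (log2 difference -1.79, SE 0.39, limma adjusted p = 0.023).

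Other genes of the fetal and strain-responsive set rose with Nppa. Of 22 tested, 6 rose (27.3%, against 3.29% of all genes) and none fell, with a median of 0.54 against −0.004 over all genes. They were Nppa, Myh7, Acta1, Ankrd1, Acta2 and Rcan1. Acta2 is also on the marker lists of activated fibroblasts and of pericytes and smooth muscle, and which cells its reads came from was not tested. Leaving out Control replicate 1 left 1 calls in the list (median 0.47), and leaving out CM KO replicate 1 left 4 (median 0.37).

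Myh7, the slow beta myosin heavy chain of fetal ventricle, read 14169 and 10482 in Control and 81559, 55449 and 44599 in CM KO. All CM KO libraries were above both Control libraries, and the log2 difference was 2.27 (SE 0.38, limma adjusted p = 0.0097). Myh6, the adult alpha chain encoded beside it on the minus strand of chromosome 14 (54941921 to 54968017, with Myh7 at 54970684 to 54994626), read 405256 and 452323 in Control and 212624, 378362 and 358812 in CM KO, a log2 difference of -0.48 (SE 0.29, limma adjusted p = 0.38). Per base of exon, Myh7 made up 3.27 and 2.19% of the sum of both in Control and 27.1, 12.4 and 10.7% in CM KO. The 2 genes are near-identical in sequence and antisense transcripts overlap Myh7, and the handling of shared reads and of strand is not stated, so this split is uncertain.

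Acta1, skeletal alpha-actin, read 2217 and 3777 in Control and 12882, 8661 and 10896 in CM KO, a log2 difference of 1.88 (SE 0.40, limma adjusted p = 0.022). Ankrd1, a nuclear and sarcomeric ankyrin repeat protein that responds to stretch, read 19887 and 40957 in Control and 125914, 96306 and 91570.5 in CM KO, a difference of 1.86 (SE 0.37, limma adjusted p = 0.019). Neither gene overlapped between the groups. Acta2, smooth muscle alpha-actin, read 693 and 1368 in Control and 2925, 2572 and 2704 in CM KO (log2 difference 1.49, SE 0.24, limma adjusted p = 0.0079), and Rcan1, a calcineurin inhibitor that is also a calcineurin target, read 1439 and 2021 in Control and 3506, 2351 and 2889 in CM KO (log2 difference 0.75, SE 0.20, limma adjusted p = 0.047). In Acta2 and Ankrd1, Control replicate 2 was well above Control replicate 1 and still below all CM KO libraries.

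The promoters of the fetal genes that rose are shown because those genes moved together. The stretches come from RefSeq (GRCm38.p6), read 5′ to 3′ on the gene's strand. Nppa, Myh7 and Acta1 are given by the 250 bases before an annotated start (chr4:148000472-148000721, plus strand, chr14:54994627-54994876, minus strand, and chr8:123894776-123895025, minus strand). Myh7 has 2 promoter entries, of which 1 holds a match, and that entry is the one shown. Ankrd1 and Acta2 are given by 30 bases around each match (chr19:36120037-36120066 and chr19:36119950-36119979 for Ankrd1 and chr19:34255502-34255531 for Acta2, all minus strand), since annotated exons reach into the windows. Capitals mark GGAATG or its reverse complement CATTCC, the core of the M-CAT element that TEAD factors bind in muscle genes.
Nppa: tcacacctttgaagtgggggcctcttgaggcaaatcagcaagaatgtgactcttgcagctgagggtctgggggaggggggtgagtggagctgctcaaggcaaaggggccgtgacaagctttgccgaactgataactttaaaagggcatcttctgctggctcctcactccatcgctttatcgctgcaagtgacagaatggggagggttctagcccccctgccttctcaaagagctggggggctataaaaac
Myh7: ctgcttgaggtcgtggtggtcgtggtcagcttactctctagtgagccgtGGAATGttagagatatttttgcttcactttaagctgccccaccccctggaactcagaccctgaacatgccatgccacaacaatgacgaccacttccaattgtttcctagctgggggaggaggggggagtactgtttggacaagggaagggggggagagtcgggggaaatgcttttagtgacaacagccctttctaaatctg
Acta1: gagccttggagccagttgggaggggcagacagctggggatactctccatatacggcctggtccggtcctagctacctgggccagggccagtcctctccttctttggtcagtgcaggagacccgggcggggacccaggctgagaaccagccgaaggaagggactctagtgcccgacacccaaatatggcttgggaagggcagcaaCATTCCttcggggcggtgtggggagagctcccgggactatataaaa
Ankrd1, first match: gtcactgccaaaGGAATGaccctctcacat
Ankrd1, second match: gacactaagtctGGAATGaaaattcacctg
Acta2: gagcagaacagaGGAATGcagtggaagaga

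The motif occurred on either strand in 250 bases before the start of 3880 of 27025 genes of the table (14.4%, or 12.6% of 32851 promoters). In the fetal list it occurred in 8 of 23 matched genes and in 4 of the 6 that rose. A gene with several promoter entries was counted if any of them held the motif, as Myh7 did in 1 of 2. The matches lay 195 bases before the start in Myh7, 40 in Acta1, 204 and 117 in Ankrd1 and 140 in Acta2. Nppa and Rcan1 held no match in this window, and Nppb held one. A match is a run of letters and was not tested as a binding site.

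**Figure D2:**
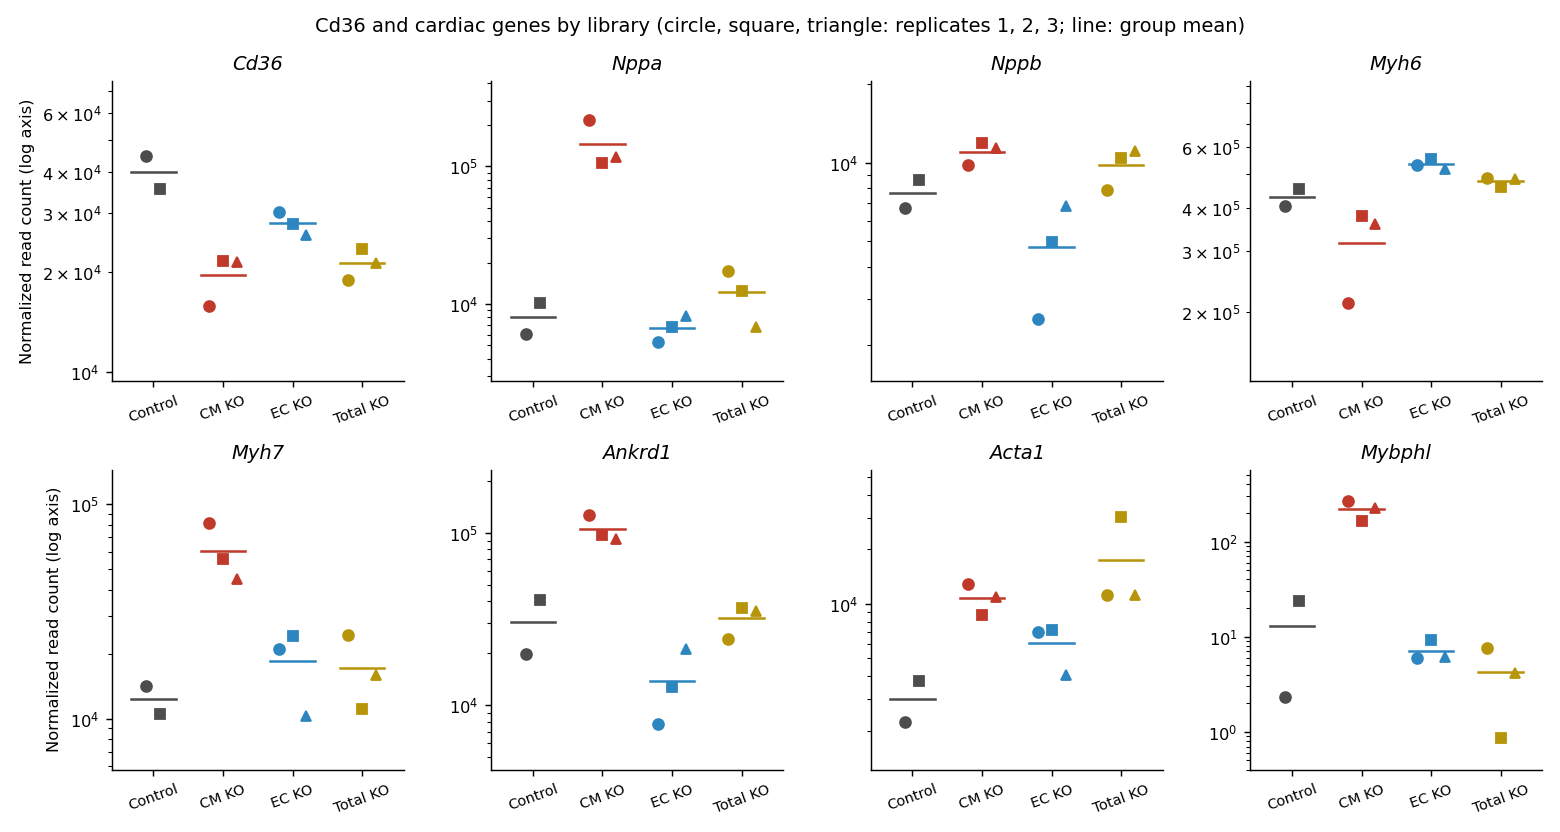
Normalized read count (log axis) of Cd36, Nppa, Nppb, Myh6, Myh7, Ankrd1, Acta1 and Mybphl in each of the 11 libraries, with symbols for replicates and a line at each group mean. The 3 CM KO libraries lie above all 8 other libraries in Nppa, Myh7, Ankrd1 and Mybphl, and below both Control libraries in Cd36; in Nppb they lie above both Control libraries, and the lowest of them lies within the range of Total KO.

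Nppa is also a marker of atrial muscle, and the other genes of the atrial list did not move as one. The 4 that rose were Nppa, Mybphl, Dkk3 and Clu, and Kcnj3 fell. Mybphl, a myosin-binding protein of atria and conduction tissue, read 2.33 and 23.9 in Control and 267, 164 and 227 in CM KO (log2 difference 4.57, SE 0.75, limma adjusted p = 0.0088). The defining atrial genes Myl4, Myl7, Sln and Bmp10 read at most 43.5 in any of the 5 libraries. Myl4 read 43.5 and 22.4 in Control and 31.6, 28.5 and 31.1 in CM KO, and Myl7, Sln and Bmp10 were under the filter. Without Nppa the list summed to 14989.9 to 16046 in Control and 20096 to 30309 in CM KO, most of it Clu.

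Most sarcomere and calcium-cycling genes did not pass. Of 28 sarcomere and Z-disc genes, 1 rose (Mybphl) and 1 fell, with a median of -0.10. Each made up 3.57% of the list, near the 3.29% higher and 2.40% lower of all genes. The one that fell was Myot, the Z-disc protein myotilin, with 2129 and 1335 in Control and 952, 1078 and 1112 in CM KO (log2 difference -0.69, SE 0.18, limma adjusted p = 0.047). Its difference was −0.35 without Control replicate 1. Of 23 calcium handling genes none passed the limma test (5 had an unadjusted p under 0.05, edgeR called 1 higher and DESeq2 1 lower), with a median of -0.29. The genes of lowest p were Hrc, the histidine-rich calcium-binding protein of the sarcoplasmic reticulum, at -0.76 (SE 0.23, limma adjusted p = 0.073), and Trdn, triadin, at -0.36 (SE 0.12, limma adjusted p = 0.095). Atp2a2, the calcium pump of the reticulum, stood at -0.30 (SE 0.23, limma adjusted p = 0.51) and Ryr2, its release channel, at -0.33 (SE 0.14, limma adjusted p = 0.21).

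Ion channel genes moved in both directions. Of 28 potassium channel genes, 5 fell and 1 rose (17.9% and 3.57%, against 2.40% and 3.29% of all genes). The list's median of -0.05 turned to 0.034 under scaling to library totals. Kcnd2, which carries part of the transient outward current, read 396 and 447 in Control and 166, 253 and 219 in CM KO (log2 difference -1.003, SE 0.20, limma adjusted p = 0.019). Kcnv2, a modulatory subunit that forms no channel alone, fell further, from 308 and 170.0 to 36.3, 93.9 and 63 (log2 difference -1.92, SE 0.40, limma adjusted p = 0.022). The others that fell were Kcnj3, Kcnn1 and Kcnj8 (-0.70, -0.63 and -0.44). Kcnq1, the pore of the slow delayed rectifier, rose, with 359 and 728 in Control and 1215, 895 and 964 in CM KO (log2 difference 0.99, SE 0.24, limma adjusted p = 0.032), and its difference was 0.48 without Control replicate 1 and 1.498 without Control replicate 2. Kcnip2, a subunit of the transient outward channel, did not pass, at -0.48 (SE 0.16, limma adjusted p = 0.11). No gene of the potassium channel list passed when Control replicate 1 was left out.

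Among 20 sodium, pacemaker and chloride channel and connexin genes, 1 rose and 1 fell (5% each). These shares were near the 3.29% and 2.40% of all genes. Clcn1, the chloride channel known from skeletal muscle, fell and read 114 and 101 in Control and 6.94, 28.5 and 44.2 in CM KO (log2 difference -2.31, SE 0.52, limma adjusted p = 0.026). Among 23 adrenergic, muscarinic and endothelin genes, 2 rose and 1 fell (8.70% and 4.35%, against 3.29% and 2.40% of all genes). Grk5, a kinase that desensitizes beta-adrenergic receptors, read 494 and 548 in Control and 1288, 1148 and 909 in CM KO (log2 difference 1.08, SE 0.23, limma adjusted p = 0.022), and Edn3, endothelin 3, read 105 and 132 in Control and 710.5, 277 and 265 in CM KO (log2 difference 1.66, SE 0.36, limma adjusted p = 0.023). Adra1b, an alpha-1 adrenergic receptor, fell from 648 and 646 to 257, 409 and 438 (log2 difference -0.85, SE 0.19, limma adjusted p = 0.025).

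At the membrane skeleton, Dmd and Ctnna3 fell out of 28 tested genes of the dystrophin complex and the intercalated disc, and none rose. The share that fell was 7.14%, against 2.40% of all genes. Dmd, dystrophin, read 2113 and 1648 in Control and 626, 910.5 and 727 in CM KO, less than the lower Control library in each CM KO library (log2 difference -1.32, SE 0.16, limma adjusted p = 0.0018). Ctnna3, the alpha-T-catenin of the disc, read 429.8 and 321 in Control and 147, 180.0 and 154 in CM KO (log2 difference -1.21, SE 0.16, limma adjusted p = 0.0037). For both genes CM KO replicate 1 was the lowest of its group and no library overlapped. The list's median was -0.09. The difference of Dmd passed without Control replicate 1 and that of Ctnna3 did not.

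Genes of fatty acid uptake and activation, a list that holds Cd36 itself, were lower. Of 23 tested, 5 fell (21.7%, against 2.40% of all genes) and none rose, with a median of -0.33. Acsm5, which activates medium-chain fatty acids in mitochondria, fell most, with 241 and 170.0 in Control and 8.49, 24.6 and 28.6 in CM KO (log2 difference -3.40, SE 0.39, limma adjusted p = 0.0014). Acsl1, the main long-chain acyl-CoA synthetase of heart, read 22110.1 and 27697 in Control and 13797, 18126 and 17843 in CM KO (log2 difference -0.59, SE 0.15, limma adjusted p = 0.041), and its difference was −0.35 under quantile normalization. The fatty acid transport protein gene Slc27a1 (-0.57, adjusted p = 0.025) and the caveolin gene Cav1 (-0.51, adjusted p = 0.025) were the other members that fell. Fabp3, the fatty acid-binding protein of heart cytosol, did not pass (log2 difference -0.33, SE 0.13, limma adjusted p = 0.15), nor did Lpl, lipoprotein lipase (log2 difference -0.42, SE 0.25, limma adjusted p = 0.38). The list held 1 calls without Control replicate 1 (median -0.36) and 3 without CM KO replicate 1 (median -0.23).

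Fatty acid oxidation was the metabolic list with the most calls. Of 39 tested genes, 18 fell (46.2%, against 2.40% of all genes) and none rose, with a median of -0.58. In 30 of the 39, all CM KO libraries were below both Control libraries, against 18.3% of all tested genes and 8 of the 10 cardiomyocyte markers. The members that fell covered the path from carnitine shuttle to electron transfer. In the shuttle, Cpt1b, Slc25a20, Cpt2 and Crat fell by 0.66, 0.76, 0.78 and 0.57 on the log2 scale. Cpt2, the inner-membrane carnitine palmitoyltransferase, read 6299.5 and 5852 in Control and 2852, 4021 and 3814 in CM KO (log2 difference -0.78, SE 0.14, limma adjusted p = 0.012).

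In the spiral itself, the acyl-CoA dehydrogenases Acadvl, Acadm, Acads and Acad11, the hydroxyacyl-CoA dehydrogenase Hadh and the thiolase Acaa2 fell. Acadm, the medium-chain dehydrogenase, read 22402 and 19949 in Control and 9776, 15171 and 14560.1 in CM KO (log2 difference -0.71, SE 0.17, limma adjusted p = 0.032), and Hadh read 14566 and 12872 in Control and 5237, 8467 and 8217 in CM KO (log2 difference -0.94, SE 0.18, limma adjusted p = 0.014). Of the auxiliary enzymes for unsaturated fatty acids, Ech1, Eci1, Eci2 and Decr1 fell. Ech1, a dienoyl-CoA isomerase, read 39082 and 26257 in Control and 9604, 17676 and 16249 in CM KO (log2 difference -1.19, SE 0.24, limma adjusted p = 0.018), and Eci1, an enoyl-CoA isomerase, read 5930.3 and 5061 in Control and 1909, 3187 and 2725 in CM KO (log2 difference -1.10, SE 0.17, limma adjusted p = 0.0067). Etfa, Etfb and Etfdh, which pass the electrons to the respiratory chain, fell by 0.62, 0.66 and 0.80, and the peroxisomal transporter Abcd3 fell by 0.69. In each of the genes in this paragraph, CM KO replicate 1 was lowest and replicates 2 and 3 lay close to each other. Of this list, 0 passed without Control replicate 1 (median -0.56) and 17 without CM KO replicate 1 (median -0.47).

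**Figure D3:**
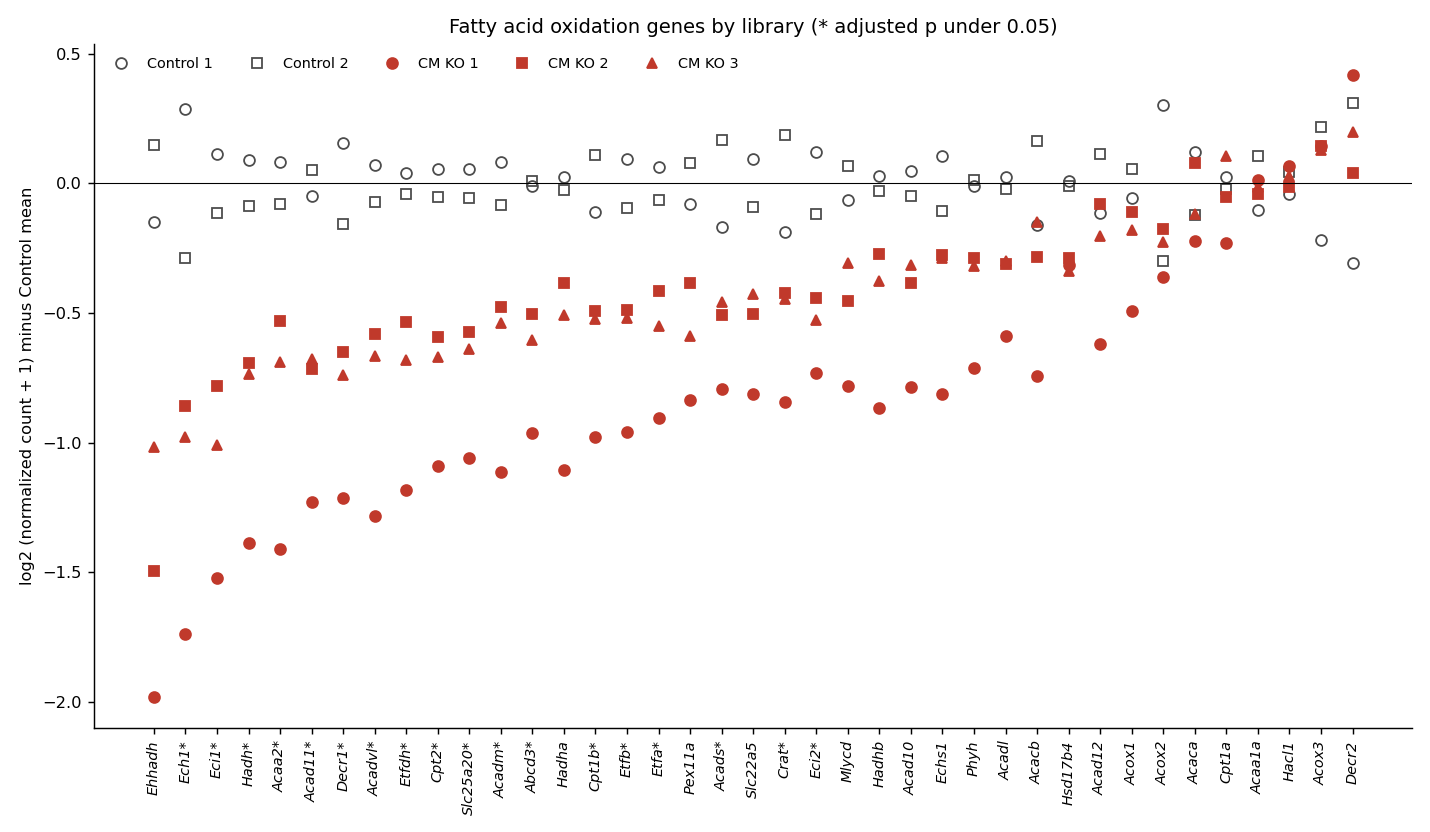
Log2 normalized count plus 1 minus the Control mean (y axis) for the 39 tested fatty acid oxidation genes (x axis, ordered by difference) in 2 Control libraries (open) and 3 CM KO libraries (red), with an asterisk at an adjusted p under 0.05. The 18 asterisked genes have all red symbols below both open ones, and the circles of CM KO replicate 1 are the lowest.

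Over the 39 genes, the median distance from the Control mean was -0.84, -0.42 and -0.46 in CM KO replicates 1, 2 and 3. The cardiomyocyte markers moved the same way with a smaller median (-0.37), and the part of a change in cell or RNA composition in these falls was not tested.

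The thioesterases Acot1 and Acot2, which release free fatty acids from acyl-CoA, fell out of 11 tested genes of the family (18.2%, against 2.40% of all genes). Acot1, the cytosolic enzyme, read 1063 and 713 in Control and 208, 299 and 317 in CM KO (log2 difference -1.69, SE 0.37, limma adjusted p = 0.024), and Acot2, its mitochondrial relative, read 2912 and 2817 in Control and 1024, 1566 and 1660.1 in CM KO (log2 difference -1.05, SE 0.21, limma adjusted p = 0.018). The 2 genes are near-identical neighbours, and how reads shared by them were counted is not stated. Acot3 read 26.4 and 32.1 in Control and 0.771, 3.89 and 3.27 in CM KO and did not pass (log2 difference -3.18, SE 0.88, limma adjusted p = 0.056).

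Known PPAR targets of heart were mostly lower, while none of the regulators of the PPAR system passed. Of 32 PPAR target genes of heart, 14 fell (43.8%, against 2.40% of all genes) and 1 rose, with a median of -0.60. Many of them are the oxidation and thioesterase genes above. Pdk4, the kinase that shuts pyruvate dehydrogenase, read 78749 and 66347 in Control and 25392, 30451 and 43207 in CM KO, with no overlap but without passing (log2 difference -1.17, SE 0.54, limma adjusted p = 0.24), and Ucp3, a mitochondrial carrier induced by fatty acids, stood at -0.71 (SE 0.54, limma adjusted p = 0.5). The gene that rose was Ucp2, with 1354 and 1579 in Control and 3338, 2064 and 2407 in CM KO (log2 difference 0.80, SE 0.16, limma adjusted p = 0.019). None of 25 PPAR, PGC-1 and ERR regulators passed the limma test (9 at an unadjusted p under 0.05, and 2 lower by edgeR and 2 by DESeq2), with a median of -0.25. Ppara stood at -0.58 (SE 0.24, limma adjusted p = 0.18) and Ppargc1a, PGC-1 alpha, at -0.68 (SE 0.30, limma adjusted p = 0.22). With Control replicate 1 left out, none of the PPAR targets passed (median -0.64), and without CM KO replicate 1, 11 fell.

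Triglyceride genes fell in 7 of 29 cases (24.1%, against 2.40% of all genes) and rose in none, with a median of -0.20. Pnpla2, adipose triglyceride lipase, read 17458 and 16539.9 in Control and 10058, 12081 and 12906 in CM KO (log2 difference -0.55, SE 0.14, limma adjusted p = 0.036), and Plin5, the perilipin that ties droplets to mitochondria, read 5116 and 4472 in Control and 2989, 3669 and 3253 in CM KO (log2 difference -0.54, SE 0.13, limma adjusted p = 0.037). Fitm1 and Fitm2, which serve droplet formation, the acyltransferase Agpat3, the phospholipase Pnpla8 and Dgat2 fell by 0.78, 0.58, 0.55, 0.46 and 0.60. The difference of Dgat2 was −0.38 without Control replicate 2. Leaving out Control replicate 1 left 0 calls in the list (median -0.24), and leaving out CM KO replicate 1 left 3 (median -0.15).

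Mitochondrial genes outside fatty acid oxidation were also lower. Of 27 genes of branched-chain amino acid and ketone body catabolism, 11 fell (40.7%, against 2.40% of all genes) and none rose, with a median of -0.47. Dbt, a subunit of the branched-chain ketoacid dehydrogenase, read 1815 and 1623 in Control and 783, 1166 and 1076 in CM KO (log2 difference -0.79, SE 0.14, limma adjusted p = 0.013). The other subunits Bckdha and Bckdhb fell by 0.68 and 0.79, and Ppm1k, the phosphatase that activates the complex, by 0.82. Further down the pathway Mccc2, Pcca, Mcee, Hibadh, Aldh6a1 and Acat1 fell. The list held 0 calls without Control replicate 1 (median -0.47) and 10 without CM KO replicate 1 (median -0.32).

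In the TCA cycle and the malate-aspartate shuttle, 7 of 26 genes fell (26.9%, against 2.40% of all genes) and none rose. All 26 had every CM KO library below both Control libraries, against 18.3% of all tested genes and 8 of the 10 cardiomyocyte markers. The members that fell were Suclg1, Sucla2, Sdhb, Ogdhl, Idh3b, Idh3a and Me1. Sucla2, a succinyl-CoA ligase subunit, read 13046 and 11817 in Control and 6389, 9159.9 and 8840.4 in CM KO (log2 difference -0.63, SE 0.14, limma adjusted p = 0.025). Ogdhl, an oxoglutarate dehydrogenase homologue, read 5542 and 5523 in Control and 1068, 3104 and 3155 in CM KO (log2 difference -1.34, SE 0.35, limma adjusted p = 0.045), and its difference was −0.82 without CM KO replicate 1. The list's median was -0.41. No TCA gene passed when Control replicate 1 was left out (median -0.46).

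Of 79 nuclear-encoded subunits of oxidative phosphorylation, 6 fell (7.59%, against 2.40% of all genes) and none rose, with a median of -0.36. In 64 of the 79, all CM KO libraries were below both Control libraries, against 18.3% of all tested genes and 8 of the 10 cardiomyocyte markers. Cox7a1, the muscle form of a cytochrome oxidase subunit, read 11299 and 10323 in Control and 4045, 6719 and 6997 in CM KO (log2 difference -0.91, SE 0.19, limma adjusted p = 0.021). Ndufb8, Ndufs8 and Ndufv3 of complex I and Sdhb of complex II also fell. Cox6b2 fell by 2.51 from a low level (83.9 and 34.3 in Control). DESeq2 called 31 of the list lower, edgeR 8, and limma without Control replicate 1 none. The distance from the Control mean was -0.62, -0.25 and -0.23 in the 3 CM KO libraries, beside -0.71, -0.27 and -0.30 for the TCA list. The medians of both lists (-0.36 and -0.41) were close to that of the cardiomyocyte markers (-0.37), whose part in these values was not tested.

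Around pyruvate dehydrogenase, 3 of 15 genes fell (20%, against 2.40% of all genes) and none rose. They were the kinase gene Pdk1, the shared subunit gene Dld and the phosphatase gene Pdp2. Pdk1 read 5169 and 4675 in Control and 3247, 3563 and 3685 in CM KO (log2 difference -0.49, SE 0.09, limma adjusted p = 0.015), and Pdp2 read 385 and 391 in Control and 132, 251 and 229.8 in CM KO (log2 difference -0.98, SE 0.26, limma adjusted p = 0.048). The list's median was -0.37, and without Control replicate 1 none passed.

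Glucose genes moved in both directions. Of 33 genes of glucose uptake and glycolysis, 6 fell and 2 rose (18.2% and 6.06%, against 2.40% and 3.29% of all genes). The list's median of -0.06 turned to 0.029 under scaling to library totals and 0.028 under quantile normalization. Pfkfb1, which sets the level of the fructose bisphosphate that activates phosphofructokinase, read 522 and 491 in Control and 60.2, 122 and 179.9 in CM KO (log2 difference -2.19, SE 0.35, limma adjusted p = 0.0079). Tbc1d4, AS160, the Akt substrate that holds GLUT4 vesicles inside the cell, read 3577 and 2308 in Control and 889, 1193 and 1271 in CM KO (log2 difference -1.38, SE 0.18, limma adjusted p = 0.003). Slc2a12, the transporter GLUT12, fell from 211 and 245 to 67.9, 84.8 and 131 (log2 difference -1.31, SE 0.24, limma adjusted p = 0.013). Fbp2, a muscle fructose bisphosphatase, and the lactate dehydrogenases Ldhd and Ldhb fell by 1.12, 0.65 and 0.60.

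Hk1, the hexokinase dominant in fetal heart, rose, with 2102 and 3585 in Control and 5096, 4478 and 4466 in CM KO (log2 difference 0.77, SE 0.17, limma adjusted p = 0.024). Its difference was 0.38 without Control replicate 1 and 1.15 without Control replicate 2. Pfkp, the platelet form of phosphofructokinase, rose as well (log2 difference 0.62, SE 0.17, limma adjusted p = 0.048). Slc2a4, the insulin-sensitive transporter GLUT4, read 6191 and 9295 in Control and 5652, 7008 and 6911 in CM KO, with overlap between the groups (log2 difference -0.22, SE 0.15, limma adjusted p = 0.45). In the glycogen, hexosamine and pentose phosphate list, 1 of 26 passed (3.85%, near the 3.29% of all genes that rose). It was the hexosamine enzyme Gfpt2, which rose from 385 and 389 to 629, 550.4 and 543 (log2 difference 0.56, SE 0.12, limma adjusted p = 0.022). Leaving out Control replicate 1, no gene of these 2 lists passed.

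**Figure D4:**
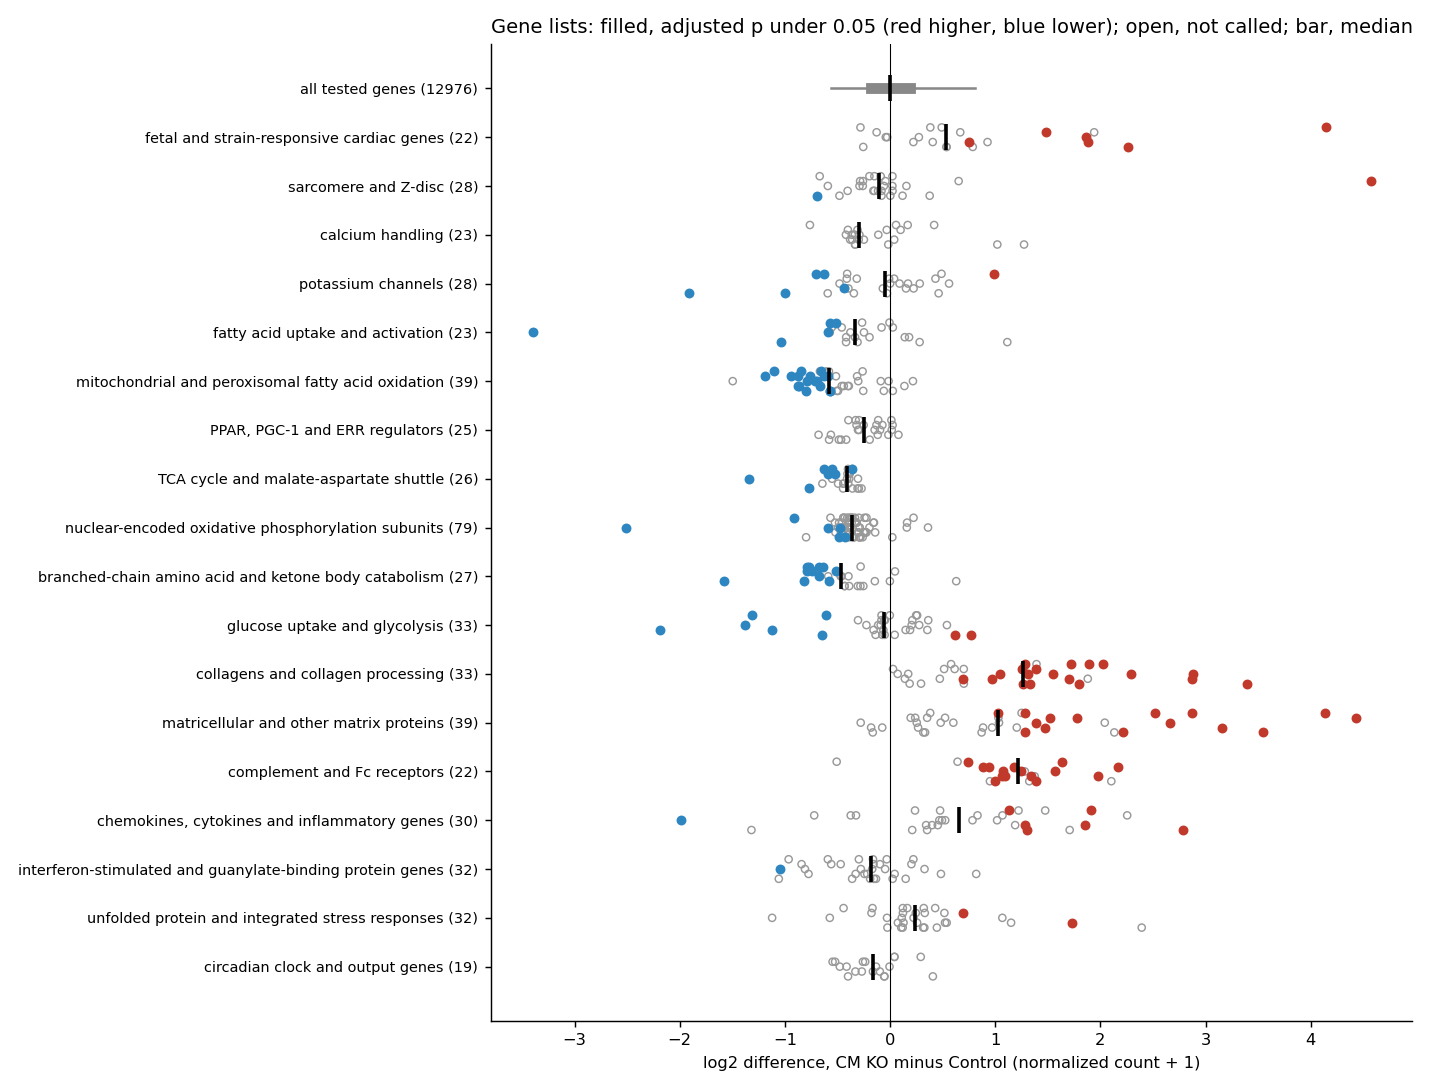
Log2 difference between CM KO and Control (x axis) for the tested members of 18 gene lists (y axis, number tested in parentheses), 1 symbol per gene, with a bar at each median. The top row gives all 12976 tested genes as a thin line from the 5th to the 95th percentile and a thick line over the middle quartiles; the collagen and complement lists lie to the right of 0 and the oxidation, TCA and branched-chain lists to the left.

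Matrix genes rose. Of 33 collagens and collagen-processing genes, 19 rose (57.6%, against 3.29% of all genes) and none fell, with a median of 1.26. Col3a1, a fibrillar collagen, read 1761 and 2348 in Control and 24180.0, 5794 and 7087 in CM KO (log2 difference 2.29, SE 0.43, limma adjusted p = 0.015), and Col1a1 read 575 and 948 in Control and 5181, 1672 and 1971 in CM KO (log2 difference 1.80, SE 0.37, limma adjusted p = 0.02). All CM KO libraries were above both Control libraries in each, and replicate 1 was the highest by far. Among the rest, Col8a2, Col14a1, Col12a1 and Col8a1 rose by 3.39, 2.88, 2.87 and 2.03. The crosslinking enzymes Loxl1 and Loxl2 and the procollagen processing genes Pcolce, Pcolce2 and Adamts2 rose by 1.31, 1.39, 1.28, 1.33 and 1.55. The basement membrane collagens Col4a3 and Col4a4 rose by 1.26 and 0.70. Of this list, 1 passed without Control replicate 1 (median 0.995) and 16 without CM KO replicate 1 (median 0.76). Fibroblast and activated fibroblast markers, which share genes with these matrix lists, were higher in CM KO as given above, and their part in the matrix values was not tested.

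**Figure D5:**
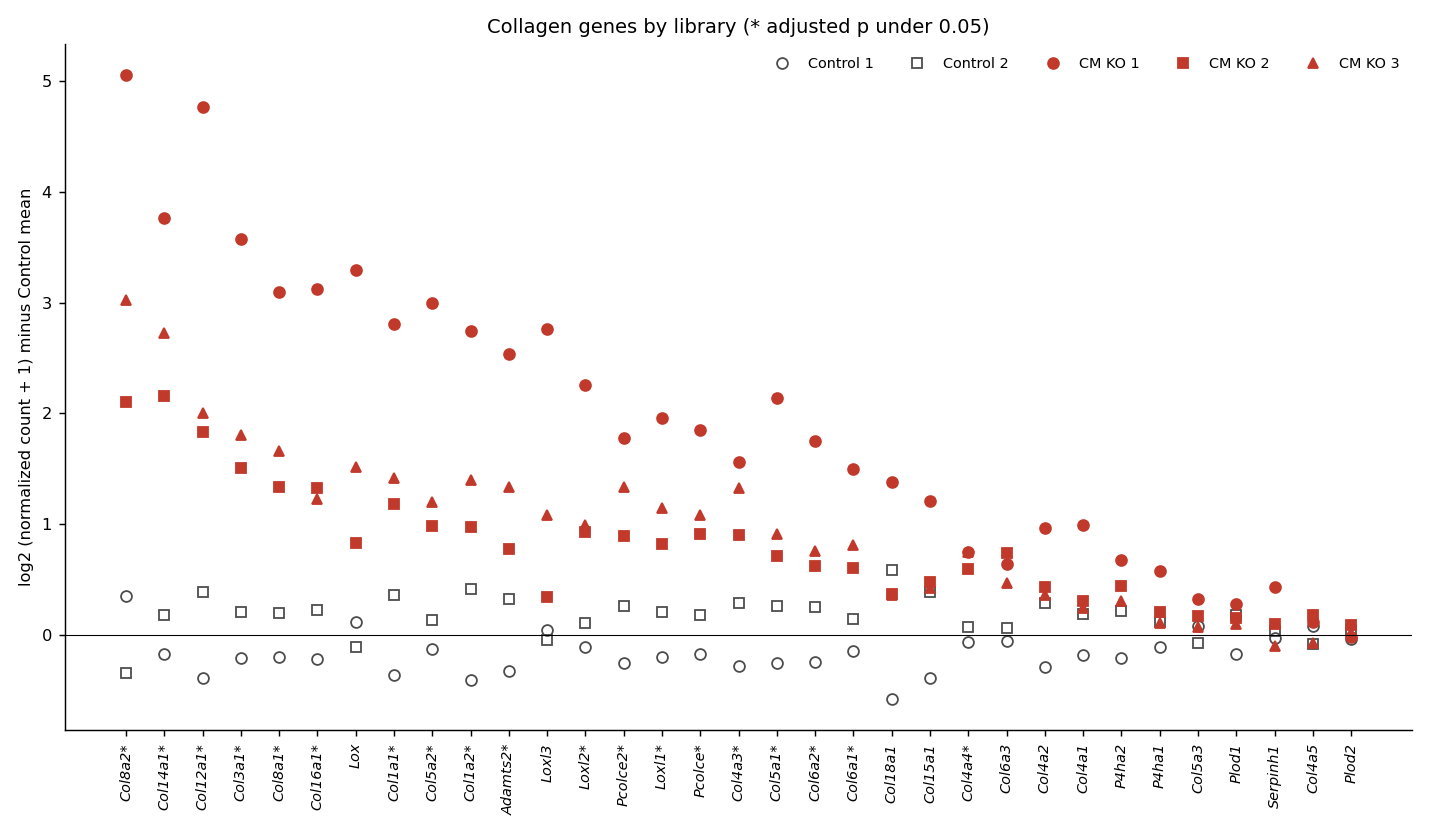
Log2 normalized count plus 1 minus the Control mean (y axis) for the 33 tested collagen and collagen-processing genes (x axis, ordered by difference), with Control libraries open and CM KO libraries in red. The circles of CM KO replicate 1 lie above the other CM KO libraries in most genes, and the 19 asterisked genes have all red symbols above both open ones.

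Matricellular and other matrix proteins rose in 15 of 39 cases (38.5%, against 3.29% of all genes) and fell in none, with a median of 1.03. Postn, periostin, made by activated fibroblasts, read 492 and 597 in Control and 24012, 2831 and 3723 in CM KO (log2 difference 3.54, SE 0.64, limma adjusted p = 0.013). Cilp, a matrix protein of cardiac scars and cartilage, read 85.5 and 315 in Control and 10971, 1777 and 2349 in CM KO (log2 difference 4.44, SE 0.70, limma adjusted p = 0.0078), and Comp, a thrombospondin of cartilage and tendon, read 20.2 and 8.2 in Control and 1076, 80.3 and 167 in CM KO (log2 difference 4.13, SE 0.79, limma adjusted p = 0.016). In all 3 genes CM KO replicate 1 was several times the other CM KO libraries, which were still above Control. Tnc, tenascin C, read 12.4 and 11.2 in Control and 183, 84.8 and 93.2 in CM KO (log2 difference 3.16, SE 0.83, limma adjusted p = 0.045). Structural members rose too: Fbn1, Fbln1, Fbln2, Fn1, Bgn and Eln rose by 1.39, 1.52, 1.02, 1.28, 1.78 and 1.47, and Eln stood at 0.97 without CM KO replicate 1. Leaving out Control replicate 1 left 0 calls in the list (median 1.07), and leaving out CM KO replicate 1 left 13 (median 0.73).

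Among 26 matrix proteases and inhibitors, 6 rose and 1 fell (23.1% and 3.85%, against 3.29% and 2.40% of all genes). Timp1, an inhibitor of matrix metalloproteinases, read 14.8 and 35 in Control and 583, 216 and 284 in CM KO (log2 difference 3.79, SE 0.43, limma adjusted p = 0.0014). Timp2 rose from 1864 and 2114 to 5795, 3289.7 and 4746 (log2 difference 1.18, SE 0.18, limma adjusted p = 0.0066), while Timp4, an inhibitor made by heart muscle, fell from 1514 and 1057 to 555, 899 and 643 (log2 difference -0.89, SE 0.19, limma adjusted p = 0.024). The proteases that rose were Mmp23, Mmp2, Ctss and Ctsk, by 1.76, 0.99, 1.38 and 1.36.

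Of 25 TGF-beta family ligands and binding proteins, 5 rose (20%, against 3.29% of all genes) and none fell. Ltbp2, a latent TGF-beta binding protein family member, read 35.8 and 84.2 in Control and 3444, 419 and 577 in CM KO (log2 difference 4.07, SE 0.67, limma adjusted p = 0.0088). The ligand Tgfb2 read 225 and 310.1 in Control and 581, 453 and 549.6 in CM KO (log2 difference 0.99, SE 0.23, limma adjusted p = 0.032), and Fstl1, a follistatin-like secreted protein, rose by 1.59, beside the ligand genes Gdf6 (2.07, adjusted p = 0.037) and Inhbb (1.17, adjusted p = 0.043). Of 21 Wnt pathway genes, 4 rose (19.0%) and none fell. The secreted modulators Sfrp1, Sfrp2 and Dkk3 and the receptor Fzd2 rose by 1.45, 2.56, 2.24 and 1.18. Sfrp1 stood at 0.95 without CM KO replicate 1. Gdf15, a stress-induced member of the family, read 8.55 and 14.9 in Control and 132, 69.9 and 27.8 in CM KO and did not pass (log2 difference 2.39, SE 1.07, limma adjusted p = 0.22).

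Of 37 growth factors and secreted peptides, 4 rose and 3 fell (10.8% and 8.11%, against 3.29% and 2.40% of all genes). Angptl7, an angiopoietin-like protein, read 63.7 and 40.3 in Control and 2162, 286 and 667 in CM KO (log2 difference 3.85, SE 0.59, limma adjusted p = 0.007), and the IGF-binding proteins Igfbp4, Igfbp6 and Igfbp7 rose by 0.94, 1.44 and 1.36. Apln, apelin, read 70 and 115 in Control and 33.2, 49.9 and 40.9 in CM KO (log2 difference -1.12, SE 0.25, limma adjusted p = 0.025). Il15, a cytokine that muscle makes, fell from 473 and 286 to 46.3, 115 and 145 (log2 difference -1.99, SE 0.47, limma adjusted p = 0.03), and Fgf9 fell by 1.01. With Control replicate 1 left out, none of the TGF-beta, Wnt and growth factor lists had a member that passed.

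Complement genes and macrophage genes were higher. Of 22 complement components and Fc receptors, 15 rose (68.2%, against 3.29% of all genes) and none fell, with a median of 1.21. C1qa, C1qb and C1qc, the chains of the first complement component that macrophages make, rose by 1.39, 1.34 and 1.25. C1qc read 602 and 646 in Control and 1992, 1111 and 1474 in CM KO (log2 difference 1.25, SE 0.19, limma adjusted p = 0.0075). C3, the central component, read 3747 and 5849.5 in Control and 12831, 6952 and 10433 in CM KO (log2 difference 1.06, SE 0.24, limma adjusted p = 0.025), and C4b read 194 and 321 in Control and 2098, 729.8 and 921 in CM KO (log2 difference 2.16, SE 0.43, limma adjusted p = 0.018), with the caveat that its near-identical copy C4a may share its reads. The inhibitor Serping1 rose by 1.002, and the receptors C3ar1 and C5ar1 by 1.56 and 1.63. The list held 0 calls without Control replicate 1 (median 1.09) and 9 without CM KO replicate 1 (median 0.96).

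The macrophage markers that rose included Csf1r, the receptor for macrophage colony-stimulating factor, with 971 and 1099 in Control and 2714, 1717 and 2276 in CM KO (log2 difference 1.09, SE 0.18, limma adjusted p = 0.0086). The resident-type markers Mrc1 and Cd163 rose by 1.17 and 1.05, and Cd68 by 1.50. Lyve1 and Timd4 did not pass, at 0.53 (SE 0.27, limma adjusted p = 0.28) and 0.81 (SE 0.80, limma adjusted p = 0.62). Of 30 chemokines, cytokines and inflammatory genes, 6 rose and 1 fell (20% and 3.33%, against 3.29% and 2.40% of all genes). Those that rose included the receptors Ccr1 and Ccr2, the chemokine Ccl6, Socs3 and Lcn2, and Il15 fell. Lcn2, lipocalin 2, read 42.7 and 59.6 in Control and 621, 274 and 260.1 in CM KO (log2 difference 2.78, SE 0.37, limma adjusted p = 0.003). The neutrophil genes S100a8, S100a9 and Retnlg were at most 7.77 in CM KO, and the T cell genes Cd3e and Cd3g at most 8.18. The neutrophil list summed to 82.4 and 41.8 in Control and 54.8, 49.9 and 46.6 in CM KO. Its 1 tested member stood at 0.87 without overlap and did not pass (unadjusted limma p under 0.05). The T and B cell list summed to 35 and 43.2 in Control and 32.4, 38.2 and 63.8 in CM KO, and its 1 tested member stood at 0.02. The part of macrophage number in the complement values was not tested.

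Antigen presentation genes held a few calls and interferon genes 1. Of 19 MHC genes, 3 rose (15.8%, against 3.29% of all genes) and none fell, while the list's median was -0.02, with 10 members below 0. The genes that rose were Cd74 and H2-Ab1 of class II and the immunoproteasome gene Psmb10, by 0.58, 0.49 and 0.57. The difference of Psmb10 was 0.26 without Control replicate 1 and 0.88 without Control replicate 2. Of 32 interferon-stimulated and guanylate-binding protein genes, none rose and Gbp6 fell (3.1%, against 2.40% of all genes), and the list's median was -0.18. Gbp6 read 448 and 276 in Control and 194, 149 and 169 in CM KO (log2 difference -1.05, SE 0.23, limma adjusted p = 0.025). Its near-identical relatives may share reads with it.

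Stress lists held few calls, in shares to be read beside the 3.29% of all genes that rose. The share that rose was 6.25% for the unfolded protein and integrated stress responses and 4.17% for serine and one-carbon genes. It was 9.09% for p53 targets, 3.45% for cell cycle genes and 4.35% for immediate early genes. The cell cycle share was close to that of all genes. Of 32 genes of the unfolded protein and integrated stress responses, Ddit3, the transcription factor CHOP, rose, with 143 and 152 in Control and 245, 261 and 213 in CM KO (log2 difference 0.69, SE 0.13, limma adjusted p = 0.016), and so did Nupr1 (log2 difference 1.73, SE 0.38, limma adjusted p = 0.024). Of 24 serine and one-carbon genes, Mthfd2, a mitochondrial folate enzyme, rose from 21 and 37.3 to 153, 63.5 and 89.1 (log2 difference 1.73, SE 0.46, limma adjusted p = 0.047). Of 22 p53 targets, Perp and Phlda3 rose (0.70, adjusted p = 0.0075, and 1.19, adjusted p = 0.023). Of 29 cell cycle genes, Ccnd2, cyclin D2, rose (log2 difference 0.65, SE 0.16, limma adjusted p = 0.035), and of 23 immediate early genes, Junb rose (log2 difference 0.85, SE 0.21, limma adjusted p = 0.035). None of 19 clock genes passed the limma test (1 at an unadjusted p under 0.05, and none by edgeR or DESeq2).

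Fkbp5, a glucocorticoid-induced co-chaperone of the glucocorticoid receptor that limits its signalling, read 816 and 880.5 in Control and 2254, 1533 and 1702 in CM KO (log2 difference 1.09, SE 0.14, limma adjusted p = 0.002), and it passed without either Control library. The other member that passed of 24 glucocorticoid-induced genes was Lcn2. Thus 8.33% of the list rose, against 3.29% of all genes, and none fell. The list did not rise as a whole: its median was -0.15, with 16 of the 24 members below 0.

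Antioxidant genes moved in both directions, with 3 of 36 higher and 4 lower (8.33% and 11.1%, against 3.29% and 2.40% of all genes). Slc40a1, ferroportin, the cell's iron exporter, read 1627 and 1253 in Control and 425, 525 and 549.6 in CM KO (log2 difference -1.52, SE 0.15, limma adjusted p = 0.0011). Gsta4, a glutathione transferase that handles lipid aldehydes, read 1735 and 1246 in Control and 652, 717 and 858 in CM KO (log2 difference -0.99, SE 0.18, limma adjusted p = 0.012), and the peroxide enzyme Cat and the mitochondrial Sod2 fell by 0.54 and 0.57. Gpx1, Gpx3 and Ucp2 rose, by 0.60, 1.32 and 0.80. Gpx3, an extracellular glutathione peroxidase, read 3843 and 4429 in Control and 19189.6, 6519.8 and 8709.5 in CM KO, and its difference was 0.87 without CM KO replicate 1.

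In the remaining lists, Ephx2, the soluble epoxide hydrolase, fell from 9674 and 8835 to 4950.3, 5929 and 5799 (log2 difference -0.74, SE 0.12, limma adjusted p = 0.0079), and Cyp4f15, a fatty acid hydroxylase of the cytochrome P450 family, from 57.5 and 44 to 0, 3.89 and 6.54 (log2 difference -3.95, SE 0.75, limma adjusted p = 0.016). Ptgis, prostacyclin synthase, rose (log2 difference 1.51, SE 0.30, limma adjusted p = 0.018). Of 24 genes of sterol and fatty acid synthesis, 2 rose and 2 fell (8.33% each, against 3.29% and 2.40% of all genes). Scd1 and Fasn rose (0.65 and 0.94). Me1 (-0.37) and Fdft1, squalene synthase, fell (for Fdft1 log2 difference -1.02, SE 0.19, limma adjusted p = 0.013). Fasn, fatty acid synthase, read 369 and 705 in Control and 890.2, 1027 and 1026 in CM KO, and its difference was 0.47 without Control replicate 1.

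Several of the largest falls belonged to no list. Aqp4, a water channel, read 79.3 and 27.6 in Control and 0.771, 5.83 and 3.27 in CM KO (log2 difference -3.69, SE 0.58, limma adjusted p = 0.0075), and Tmem150c, a membrane protein, read 58.3 and 99.9 in Control and 5.4, 25.9 and 22.1 in CM KO (log2 difference -2.29, SE 0.50, limma adjusted p = 0.024). Among the largest rises outside the lists were Dio2, which activates thyroid hormone, with 7 and 9.69 in Control and 214, 47.3 and 38.4 in CM KO (log2 difference 3.01, SE 0.63, limma adjusted p = 0.022), and Nox4, a hydrogen peroxide-producing oxidase, with 7.77 and 16.4 in Control and 207, 54.4 and 70.3 in CM KO (log2 difference 2.92, SE 0.55, limma adjusted p = 0.014). The rule that named these 4 genes required that the groups did not overlap, and the levels were low next to the metabolic genes above.

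Direct tests set CM KO against the libraries labelled EC KO and Total KO, which the labels give the same loxp cross. Cd36 read 30308, 27804 and 25758 in EC KO and 18847, 23452 and 21266 in Total KO. Neither group passed against Control (-0.51 and -0.91 on the log2 scale, limma adjusted p = 0.3 and 0.081), and the libraries labelled Total KO kept many Cd36 reads, so the count per gene does not by itself bear out that label. CM KO differed from EC KO in 2479 genes (19.1%), 1348 of them higher (10.4%) and 1131 lower (8.72%), and from Total KO in 2128 (16.4%), 1064 in each direction (8.20%). Both comparisons use the 3 CM KO libraries and are not independent of each other. The label numbers were 5051, 5049 and 5086 in EC KO and 5222, 5213 and 5214 in Total KO. An effect of MHC-cre, or a batch that followed these numbers, cannot be told apart from genotype in these comparisons either. Scaling to library totals made 76.5% of the calls against EC KO higher in place of 54.4%, and 76.2% against Total KO in place of 50%, with a shift of the median over all genes to 0.12 and 0.14. Without CM KO replicate 1, 1455 and 1054 genes passed. The call counts against Total KO without each Total KO library in turn ran from 1036 to 1249, and those against EC KO without each EC KO library from 1614 to 1958. EC KO replicate 1 held only 2268403 recovered reads, and 1769 genes passed without it.

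Several cardiac genes and most matrix genes were higher in CM KO than in both other knockouts. The list counts below are to be read beside the shares of all genes. These were 10.4% higher and 8.72% lower than in EC KO, and 8.20% in each direction against Total KO. Of the 22 fetal and strain-responsive genes, 7 were higher and 1 lower than in EC KO, and 6 higher and 3 lower than in Total KO. Nppa read 5317, 6786 and 8119.9 in EC KO and 17338, 12343 and 6797 in Total KO, and CM KO was higher by 4.38 (SE 0.34, limma adjusted p = 8.5e-05) and by 3.61 (SE 0.34, limma adjusted p = 0.00027) respectively. Myh7 was higher by 1.75 and 1.85 (limma adjusted p = 0.005 and 0.0057), and Ankrd1 by 3.02 and 1.72 (limma adjusted p = 0.0003 and 0.007). Rcan1 passed in neither comparison (0.50 and 0.55, limma adjusted p = 0.069 and 0.055), and Nppb passed against EC KO (1.32, limma adjusted p = 0.0072) but not against Total KO (0.18, limma adjusted p = 0.71). Acta1 passed in neither, with 7045, 7191 and 4055 in EC KO and 11255, 30215 and 11255 in Total KO: CM KO minus EC KO was 0.85 (SE 0.35, limma adjusted p = 0.11) and CM KO minus Total KO -0.55 (SE 0.35, limma adjusted p = 0.32). Of the 33 collagen genes, 26 were higher than in EC KO and 27 than in Total KO, and none lower. Of the 22 complement genes, 21 and 16 were higher. Postn read 393, 405 and 372 in EC KO and 536, 946 and 542 in Total KO, below every CM KO library.

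Mitochondrial genes separated the groups too. Of all genes, 8.72% were lower and 10.4% higher than in EC KO, and 8.20% were called in each direction against Total KO. In the fatty acid oxidation list, 17 of 39 were lower in CM KO than in EC KO (and 1 higher) and 19 lower than in Total KO, with medians of -0.40 and -0.46. Its median distance from the Control mean was negative in EC KO (-0.24, -0.22 and -0.22) and in Total KO (-0.19, -0.16 and -0.07) as well. Of the 32 PPAR targets, 9 were lower and 2 higher than in EC KO, and 8 lower and 2 higher than in Total KO, with medians of -0.19 and -0.25. Their distance from the Control mean was -0.28, -0.32 and -0.35 in EC KO and -0.42, -0.22 and -0.15 in Total KO. In the TCA list 19 and 19 of 26 were lower, in the branched-chain list 18 and 19 of 27, and in the oxidative phosphorylation list 24 and 40 of 79. Of the PPAR, PGC-1 and ERR regulators, none of which passed against Control, 10 and 9 of 25 were lower. Ppara read 1478 and 1508 in Control and 662, 1464 and 1028 in CM KO. It read 2586, 2392 and 2247 in EC KO and 2802, 2218 and 2139 in Total KO, above every CM KO and Control library. CM KO differed from EC KO and Total KO by -1.27 and -1.25 on the log2 scale (limma adjusted p = 0.0024 and 0.0044). EC KO and Total KO stood above Control by 0.69 and 0.67 without passing (limma adjusted p = 0.33 and 0.45), and CM KO minus Control was -0.58. Dmd differed by -1.52 and -1.51 (limma adjusted p = 0.00016 and 0.00027), and Acsm5 by -2.90 and -2.98 (limma adjusted p = 0.0005 and 0.00073).

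Of the 89 named genes that fell against Control, 15 passed against neither EC KO nor Total KO. They included Cyp4f15, the largest fall, which read 6.04, 7.53 and 6.19 in EC KO and 3.82, 5.97 and 12.5 in Total KO (CM KO minus EC KO -1.18 and minus Total KO -1.21, limma adjusted p = 0.24 and 0.25). Cox6b2, Kcnj3, Slc27a1, Acsl1, Eci2, Abcd3, Acot1, Agpat3, Me1 and Fgf9 were others. Acot2 read 1305, 1426 and 1275 in EC KO and 1096, 1623 and 1736 in Total KO, and CM KO minus EC KO was 0.06 (SE 0.19, limma adjusted p = 0.86) and CM KO minus Total KO -0.07 (SE 0.19, limma adjusted p = 0.84). Ephx2, Fbp2 and Adra1b stood at 0.06, 0.49 and 0.31 from EC KO (SE 0.11, 0.21 and 0.17) and at -0.12, 0.29 and 0.24 from Total KO (SE 0.11, 0.21 and 0.17), none of them passing. For Cd36, CM KO minus Total KO was -0.12 (SE 0.15, limma adjusted p = 0.64) and CM KO minus EC KO -0.52 (SE 0.15, limma adjusted p = 0.03). Missing the threshold does not show that these levels were equal. Slc40a1 was lower in CM KO than in either (-0.56 and -0.63, limma adjusted p = 0.012 and 0.0089), and its level in both was below both Control libraries (731, 676 and 802 in EC KO and 687, 847 and 784 in Total KO).

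Within the CM KO group, replicate 1 lay farthest from Control in most called genes. It was the highest CM KO library in 368 of the 427 higher genes and the lowest in 273 of the 312 lower genes. The median distance of the 427 genes from the Control mean was 1.38 in replicate 1, 0.78 in replicate 2 and 0.96 in replicate 3, and that of the 312 genes was −0.96, −0.56 and −0.62. In the 6 EC KO and Total KO libraries the same medians lay between −0.07 and 0.18 for the higher genes and between −0.11 and −0.04 for the lower. By list, the distance in CM KO replicates 1 to 3 was 1.77, 0.74 and 0.99 for collagens, 1.64, 0.77 and 1.18 for complement and 0.97, 0.38 and 0.40 for the fetal genes. Control replicate 2 was the Control library nearer to CM KO in 320 of the higher and 229 of the lower genes. Genes in which replicate 1 did not lead included Junb, with 356, 561 and 463, Socs3, with 117, 155 and 141, and Perp, with 2763, 2853 and 2637.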

How the data were processed

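Ribo-depleted total RNA (400 ng) of mouse hearts was sequenced, per the labels' protocols. Per the submitters' processing notes, the tools were TopHat2, HTSeq 0.8.0 and DESeq2 (given as version 3.5), with the mm10 build. Strand setting, annotation and filters are not given in the sources used here. The deposited signal holds read counts scaled by the authors with a factor for each library. All 257620 values were whole reads to within 0.05. The main test was limma 3.58.1 with a trend (R 4.3.3) on log2(value + 1) of 12976 genes with a mean of at least 10, all 11 libraries in one fit, and Benjamini-Hochberg adjustment over those genes with a threshold of 0.05. Fold changes on this scale understate those of low genes. edgeR 4.0.16 and DESeq2 1.42.0 were run on the recovered reads. The script was tested on simulated data.

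Members and gene lists were chosen with earlier results of these data known. Named were Cd36 and a fixed set of genes, the 15 largest rises and 15 largest falls among called, non-overlapping, non-predicted genes whose larger group mean reached 50, and of each list the members that passed and the 4 of lowest p, of which the text names some. Of the 23420 genes, 4716 were at 0 in every library. A few genes that entered the counts are not reported here by name.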

Additional observations from a re-analysis of the deposited data

Results flagged for a closer look

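Gbp6, a guanylate-binding protein gene, moved in opposite directions in the 2 cell-type knockouts. It read 448 and 276 in Control and 194, 149 and 169 in CM KO, with 900.3, 825 and 885 in EC KO and 715, 677 and 415 in Total KO. The log2 difference from Control was -1.05 in CM KO and 1.30 in EC KO (limma adjusted p = 0.025 and 0.042), and CM KO minus EC KO was -2.35 (SE 0.21, limma adjusted p = 0.00012). The predicted gene 9230112J17Rik, named after its values were seen, did so in the other direction, at 0.60 in CM KO and -0.81 in EC KO, with CM KO minus EC KO at 1.41 (SE 0.13, limma adjusted p = 0.00016). It read 300.0 and 350.4 in Control and 589, 450.1 and 447 in CM KO, with 193, 164 and 198 in EC KO. Both knockouts were set against the same 2 Control libraries.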

How the results depend on the processing

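No paired analysis was possible because the groups' label numbers do not match across groups and the labels state no shared litter, batch or day. For CM KO against Control, the 739 calls (427 higher, 312 lower) became 63 (41 and 22) in a fit to the 2 groups, 425 (250 and 175) without CM KO replicate 1 and EC KO replicate 1 together, an alternative chosen after seeing the data, and 1276 (714 and 562) by DESeq2, with 187 lower under a weight per library. Leaving out 1 library at a time gave 26 to 999 calls, 11 to 551 higher and 15 to 448 lower. Against EC KO the range was 1455 to 2582, with 1141 without both libraries. Against Total KO it was 1036 to 2272, with 1261 without both and 3553 under a weight per library. The Cd36 difference was −1.03 and past the threshold in the fit to all groups, missed it at −1.03 in the fit to the 2 groups, and ranged from −1.20 to −0.87 without 1 library. Uncalled genes changed sign: Slc2a4 ranged from −0.518 to 0.0688 and Myl4 from −0.505 to 0.425 without 1 library, Atp2a2 was 0.0342 under quantile normalization and Myl4 0.0428 under scaling to library totals. The cause was not tested. With 2 Control libraries, each library weighs heavily on every value here.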

Other observations

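Some transcripts were even across the 3 CM KO libraries, in contrast to the matrix genes. Both genes below were chosen after their values were seen. Plekha7, which encodes an adherens junction protein, read 31.1 and 45.5 in Control and 261, 226 and 209 in CM KO, with 24.2, 35.1 and 26.5 in EC KO and 39.5, 23.9 and 39.2 in Total KO (log2 difference 2.59, SE 0.27, limma adjusted p = 0.0013). The predicted gene Gm14085 read 0.777 and 0 in Control and 39.3, 39.5 and 32.7 in CM KO, with 0, 0 and 0 in EC KO and 0, 0.853 and 0 in Total KO. Its Control values amount to 1 read or none, so no fold is given.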
